A study of Homo sapiens with 4 samples.

Results

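The 37 genes described here carry glucose from uptake to lactate, pass pyruvate to the mitochondrion and run the pentose phosphate branch. They were taken by symbol from a table of 58219 genes and divided by role into 23 genes of glycolysis, lactate and its control, 8 genes of pyruvate entry and 6 genes of the pentose phosphate pathway. Expression was measured by RNA sequencing in GBM8401 cells, a human malignant glioma line. A temozolomide-resistant GBM8401 line, made in medium with 200 µM temozolomide (TMZ, a DNA-methylating drug) over 140 days, was set against the parental line, with 2 libraries in each group. The series' design text speaks of a single resistant line. The labels call the replicates biological but tie them to no separate day or derivation, so p-values measure the spread between these libraries.

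Glycolysis splits glucose into pyruvate in the cytosol, and lactate dehydrogenase with a lactate exporter removes the end product, a route that many tumour cells, glioma cells among them, use even in oxygen. Pyruvate that is not made into lactate enters mitochondria through a carrier and is converted to acetyl-CoA by pyruvate dehydrogenase, which the PDK kinases switch off and the PDP phosphatases switch on. The pentose phosphate pathway branches off after hexokinase, making NADPH in its oxidative steps and ribose phosphate for nucleotides.

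Genes of the pathway moved in both directions in resistant cells. Transcripts of the glucose transporter SLC2A3 and the aldolase ALDOC were 3.09-fold and 2.84-fold higher, and those of PFKFB2, PFKM, MPC2, PGD and TKT were also higher. Transcripts of the hexokinases HK1 and HK2, of GPI and LDHA, of the lactate exporter SLC16A3, of PFKFB3, PFKFB4 and PDK1 and of the isomerase RPIA were lower. All 37 genes passed the filter on low values. Under limma with Benjamini-Hochberg adjustment over all 16132 genes tested and a threshold of 0.05, 16 of the 37 were called, 7 higher and 9 lower. That is 43.2% of the members, against 37.1% of all genes tested (16.2% higher and 20.9% lower), so the count lies near that of the transcriptome. The median size of the log2 fold change was 0.22 among the members and 0.32 among all genes, and 2 members changed by at least 2-fold, where 8.41% of all genes were called at that size. In 28 of the 37 the libraries of the groups did not overlap, against 68.6% of all genes. Without resistant replicate 1 the members called numbered 8, with 5 higher and 3 lower, where 21.9% of all genes were called in the same setting.

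**Figure D1:**
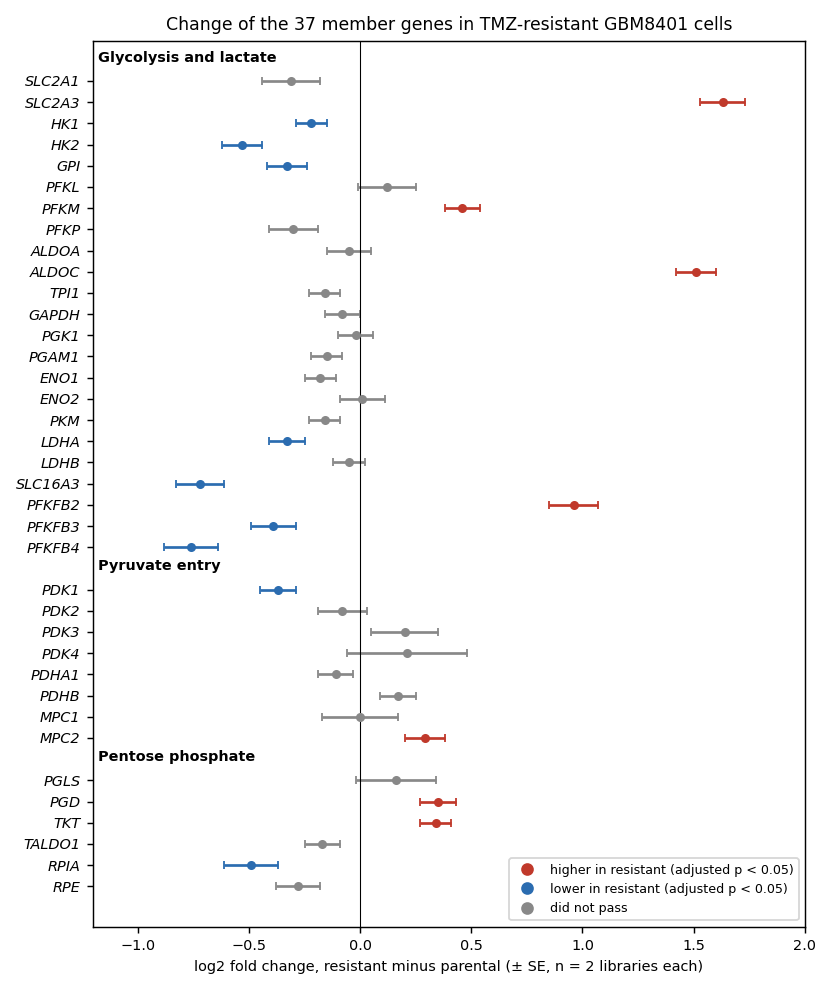
Log2 fold change of each member gene, resistant minus parental, with its standard error (n = 2 libraries each), on the log2(value + 1) scale and grouped by branch. SLC2A3 at 1.63 and ALDOC at 1.51 stand farthest to the right and PFKFB4 at -0.76 and SLC16A3 at -0.72 farthest to the left, while the enzymes from TPI1 to PKM lie between -0.18 and 0.01.

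Values are scaled fragments per gene as deposited, with library totals of 23163310 to 25832511. Scaling by library total in place of the deposited scaling turned the share of higher genes among those called to 56.9%, against 43.7% with the deposited scaling. Among the members it gave 8 higher and 8 lower. Of the 7 glioma and neural markers 4 were tested: NES, VIM and CD44 fell (log2 fold changes -1.06, -0.61 and -0.47; limma adjusted p = 1.04e-04, 0.00105 and 0.00146), and OLIG2 was not called. The list summed to 65863 and 73689.5 in resistant and to 104075 and 108661 in parental libraries, while GFAP (0 to 2.87), SOX2 (2.87 to 10.5) and S100B (0.956 to 4.25) lay near 0 in every library. The summed epithelial markers were at 34030.4 and 36036 in resistant libraries and 17451 and 19714 in parental ones. KRT8 and KRT18 were called higher and made up most of these sums. EPCAM, between 83.2 and 167, and CDH1, between 297 and 503, overlapped between groups. Neither was called (log2 fold changes 0.35 and 0.25; limma adjusted p = 0.431 and 0.424). The 4 hematopoietic markers summed to 1033 and 1088 in resistant and to 666 and 607 in parental libraries, the 3 endothelial ones to 449.6 and 365 against 578 and 624, and the 4 fibroblast ones to 5633 and 4502 against 5624 and 4053. Among these CD68 was the 1 hematopoietic marker called (higher), with PTPRC at 0.08, CD14 at -0.06 and CD3E at 0.65 on the log2 scale. CDH5 was the 1 endothelial marker called (-1.30), with PECAM1 at 0.25 and VWF at -0.26, and 0 fibroblast markers were called. The part of these markers in the results was not tested. In bulk libraries, fewer cells with a transcript and less transcript per cell cannot be told apart.

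Promoter windows of 4 members are shown because these are the largest called rise and fall in glycolysis and the largest called change in each of the other branches, among the 35 members with an entry in the RefSeq promoter table (SLC2A3 and PFKFB2 have none). Each runs 5′ to 3′ on the gene's strand, from 250 bases before a transcript start to 50 after it, on GRCh38.p14. Capitals mark ACGTG, the core bound by hypoxia-inducible factors and the inner part of the E-box CACGTG, and GGGCGG, the GC box, on either strand. ALDOC lies at chr17:28576846-28577145 on the minus strand, PFKFB4 at chr3:48556754-48557053 on the minus strand, PDK1 at chr2:172555840-172556139 on the plus strand and RPIA at chr2:88691423-88691722 on the plus strand.
ALDOC: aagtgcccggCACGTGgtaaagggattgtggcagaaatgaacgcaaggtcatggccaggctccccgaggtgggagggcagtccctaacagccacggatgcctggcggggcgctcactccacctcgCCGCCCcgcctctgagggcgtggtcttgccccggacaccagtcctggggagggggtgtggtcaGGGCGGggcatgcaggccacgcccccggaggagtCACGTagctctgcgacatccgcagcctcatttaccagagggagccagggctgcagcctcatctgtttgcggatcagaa
PFKFB4: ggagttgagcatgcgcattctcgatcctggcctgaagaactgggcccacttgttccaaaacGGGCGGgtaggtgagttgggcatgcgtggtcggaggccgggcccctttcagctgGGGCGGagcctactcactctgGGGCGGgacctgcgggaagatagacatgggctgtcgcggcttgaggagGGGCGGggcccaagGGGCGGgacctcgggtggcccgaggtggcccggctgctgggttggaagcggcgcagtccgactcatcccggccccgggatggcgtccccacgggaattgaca
PDK1: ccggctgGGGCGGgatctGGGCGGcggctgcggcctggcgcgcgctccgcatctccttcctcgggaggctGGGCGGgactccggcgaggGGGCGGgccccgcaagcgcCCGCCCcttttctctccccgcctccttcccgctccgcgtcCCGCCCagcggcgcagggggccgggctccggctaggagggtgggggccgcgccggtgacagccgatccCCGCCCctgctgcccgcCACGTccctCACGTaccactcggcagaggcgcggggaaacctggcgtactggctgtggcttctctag
RPIA: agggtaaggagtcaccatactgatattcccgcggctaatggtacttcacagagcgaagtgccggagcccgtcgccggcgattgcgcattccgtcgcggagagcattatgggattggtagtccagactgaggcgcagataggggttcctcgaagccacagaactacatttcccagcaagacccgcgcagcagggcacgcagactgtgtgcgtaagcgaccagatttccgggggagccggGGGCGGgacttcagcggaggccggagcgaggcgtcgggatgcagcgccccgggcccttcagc
The ALDOC window, of a gene that rose, holds 3 matches to ACGTG when both strands are counted, since CACGTG reads the same on each. The printed window of PDK1, which fell, holds 2 matches to ACGTG and 7 to GGGCGG. PDK1 has 2 windows, of which 1 was printed and counted here, while ALDOC, PFKFB4 and RPIA have 1 each. PFKFB4 and RPIA, which also fell, hold 0 matches to ACGTG and 5 and 1 to GGGCGG. Over all members, 18 of 35 genes (51.4%) had ACGTG in at least 1 window, against 32% of the 10849 tested genes in the table. The share was 33.8% of 65 member windows and 21.4% of all 35116 windows. CACGTG was found for 8 members (22.9%, against 12.4% of tested genes) and GGGCGG for 34 members (97.1%, against 75.7%), while TATAAA was found for 4 (11.4%, against 8.67%). Per window, TATAAA was found in 6.15% of member windows against 11.5% of all windows. The window shares are set against all 35116 windows and the gene shares against tested genes only. The backgrounds thus differ, and the shares per window and per gene cannot be compared directly. Members with ACGTG include genes that rose (ALDOC, PFKM, PGD) and genes that fell (HK2, GPI, LDHA, SLC16A3, PFKFB3, PDK1). A match is a string of letters and was not tested as a binding site.

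At the entry step SLC2A3 rose, while SLC2A1 did not pass the test. SLC2A3, the high-affinity glucose transporter typical of neurons (GLUT3; chromosome 12, 7919230 to 7936275, minus strand), had 8693 and 8679.5 scaled fragments in resistant libraries, against 2537 and 3122 in parental ones. Both resistant libraries lay far above both parental ones, and the rise was 3.09-fold (log2 fold change 1.63 ± 0.10, SE; limma adjusted p = 5.07e-05). SLC2A1, the widely expressed basal transporter GLUT1, had 6918 and 7936 in resistant libraries and 8049 and 10468 in parental ones. Its groups did not overlap, but parental replicate 2 stood well above parental replicate 1, and the log2 fold change of -0.31 ± 0.13 did not pass (adjusted p = 0.108; 5.53e-06 to 0.425 over the 14 alternatives). Without parental replicate 1 it passed at -0.50 (adjusted p = 0.00823). Per kilobase of transcript, SLC2A3 made up 54.1% and 50.6% of the signal of the pair in resistant libraries, against 22.8% and 21.8% in parental ones. The pair together summed to 4105 and 4379 per kilobase in resistant libraries and 2841 and 3649.7 in parental ones. SLC2A14, a near-identical copy beside SLC2A3, was itself listed at 91.9 and 78.1 in resistant and 31.7 and 26.8 in parental libraries, and reads may have been divided between the copies.

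Hexokinase, which traps glucose as glucose-6-phosphate, was lower, with the firmer call in its inducible form. HK2 had 3828 and 3971 in resistant libraries and 5173 and 6104 in parental ones, without overlap, a 1.44-fold fall (log2 fold change -0.53 ± 0.09, limma adjusted p = 0.00304). HK1, the constitutive form, had 7783 and 8035 in resistant and 9438 and 8957 in parental libraries. Its fall of 1.16-fold passed narrowly (-0.22 ± 0.07, adjusted p = 0.0392). Omitting any 1 library ended that call (adjusted p from 0.057 without parental replicate 2 to 0.191 without resistant replicate 1; 0.103 without resistant replicate 2 and 0.166 without parental replicate 1), as did scaling by library total (0.209), TMM (0.0851) and median of ratios (0.0516), and over all alternatives it ran from 0.00175 to 0.209. HK2 made up 23.5% and 23.6% of the hexokinase signal per kilobase in resistant libraries and 25.5% and 29.9% in parental ones. GPI, the isomerase that makes fructose-6-phosphate, had 9938 and 11325 in resistant and 12783 and 13926 in parental libraries, a 1.26-fold fall (-0.33 ± 0.09, adjusted p = 0.0171). The GPI call was lost without resistant replicate 1 (adjusted p = 0.118) and without parental replicate 2 (0.0774), within a range of 6.32e-07 to 0.118 over the alternatives. GPI overlaps AC092073.1 on its own strand, listed at 0 in both resistant libraries and at 32.1 and 0 in parental ones.

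Phosphofructokinase commits sugar to glycolysis, and 1 of its 3 genes was called. PFKM, the muscle-type subunit (chromosome 12, 48105139 to 48146404), had 3711 and 3989.9 in resistant libraries and 2721 and 2866 in parental ones. The groups were well apart and the rise was 1.38-fold (0.46 ± 0.08, limma adjusted p = 0.00267). PFKP, the platelet-type subunit and the most abundant of the 3, had 9917 and 11738 in resistant and 12321 and 14361 in parental libraries (-0.30 ± 0.11, adjusted p = 0.0565). PFKP passed without the filter on low values (0.0385), without resistant replicate 2 (0.0212) and without parental replicate 1 (0.0236), and ran from 5.99e-06 to 0.286 over the alternatives. PFKL, the liver-type subunit, had 3953 and 4767 in resistant and 3605 and 4449 in parental libraries, with overlap (0.12 ± 0.13, adjusted p = 0.519). PFKM made up 18.4% and 17% of phosphofructokinase signal per kilobase in resistant libraries and 12.6% and 11.4% in parental ones, and PFKP 59.8% and 60.6% against 69% and 69.1%. PFKM overlaps SENP1 on the other strand, which was lower in resistant cells (log2 fold change -0.42), and the sources used here do not state whether fragments were counted by strand.

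The PFKFB enzymes make and remove fructose-2,6-bisphosphate, the strongest activator of phosphofructokinase. All 3 members were called, in different directions. PFKFB2, the form known from heart, had 775 and 839.9 in resistant libraries and 400.2 and 428 in parental ones, a 1.95-fold rise (0.96 ± 0.11, limma adjusted p = 4.06e-04). PFKFB4 had 582 and 694 in resistant and 1014 and 1140.1 in parental libraries, a 1.69-fold fall (-0.76 ± 0.12, adjusted p = 0.00177). PFKFB3, the form with the highest kinase to phosphatase ratio, had 1589 and 1824 in resistant and 2139 and 2334 in parental libraries, a 1.31-fold fall (-0.39 ± 0.10, adjusted p = 0.0137). PFKFB4 overlaps UCN2 on its own strand, listed at 6.81 and 12.7 in resistant and 31.7 and 34 in parental libraries. In none of the 3 did the groups overlap. The PFKFB3 call was lost without resistant replicate 1 (0.119) and without parental replicate 2 (0.0528), in a range of 1.49e-07 to 0.119. PFKFB3 stayed the leading form per kilobase, with 56.6% in each resistant library and 58.5% and 57.9% in parental ones, while PFKFB2 made up 17.4% and 16.5% against 6.91% and 6.72%. PFKFB2 overlaps YOD1 on the other strand, whose log2 fold change was 0.05 (adjusted p = 0.705).

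**Figure D2:**
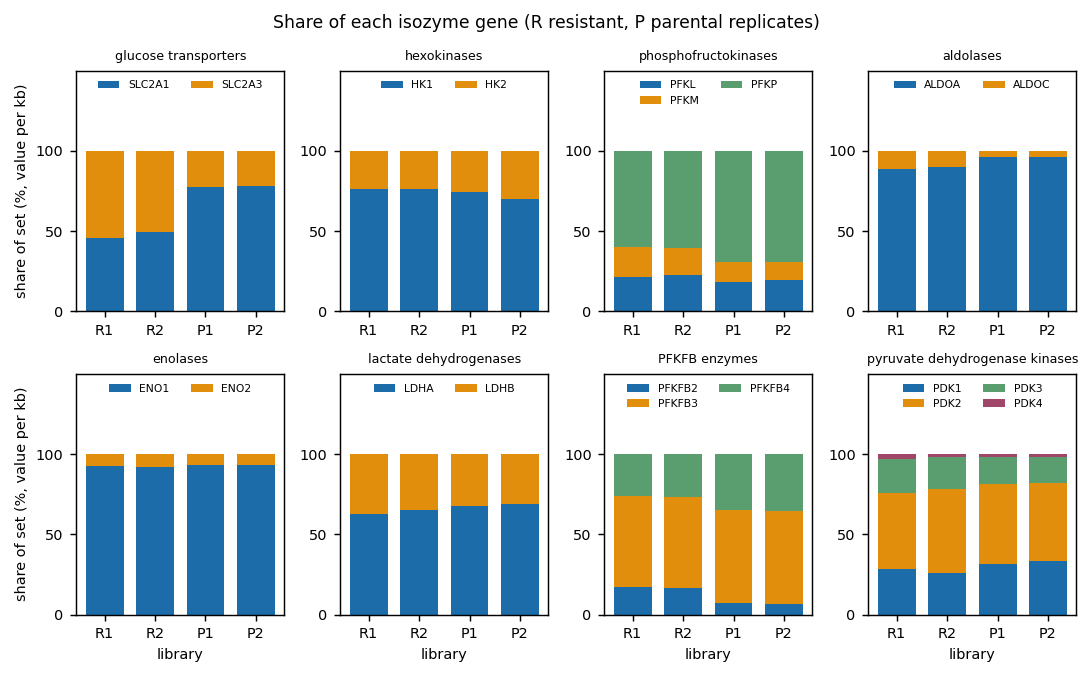
Share of each gene in the summed value per kilobase of its enzyme set (vertical axis, percent) in each library (R1 and R2 resistant, P1 and P2 parental). SLC2A3 takes 54.1% and 50.6% of the transporter pair in resistant libraries and 22.8% and 21.8% in parental ones, and the ALDOC band is 11% and 10.2% against 3.92% and 3.8%.

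Aldolase splits the doubly phosphorylated sugar, and its brain form rose while its common form showed no call. ALDOC (aldolase C, typical of brain; chromosome 17, 28573115 to 28577264, the gene of the window printed above with CACGTG) had 3142 and 3389 in resistant libraries, against 1089 and 1209 in parental ones. The values were tight within each group, and the rise was 2.84-fold (log2 fold change 1.51 ± 0.09, limma adjusted p = 3.79e-05). ALDOA, the ubiquitous form, had 20653 and 24174 in resistant and 21569 and 24735 in parental libraries, which overlap (-0.05 ± 0.10, adjusted p = 0.745). ALDOC overlaps AC005726.1 on its own strand, listed at 46 and 46 in resistant and 55.7 and 57.4 in parental libraries. ALDOC made up 11% and 10.2% of aldolase signal per kilobase in resistant libraries and 3.92% and 3.8% in parental ones.

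The 7 genes from triose phosphate to pyruvate were TPI1, GAPDH, PGK1, PGAM1, ENO1, ENO2 and PKM. They gave 0 calls by limma, where 37.1% of all genes tested were called. Their log2 fold changes were -0.18 to 0.01, and 3 had an unadjusted limma p under 0.05. GAPDH, which oxidises the triose and is widely used as a reference transcript, had 61631 and 68168 in resistant libraries and 64539 and 73039 in parental ones (-0.08, 95% interval -0.27 to 0.11). PGK1, the first enzyme of the route that yields ATP, had 11803 and 13361 against 12299.9 and 13257 (-0.02, interval -0.21 to 0.17). Both pairs overlap, and the intervals leave room for differences of modest size. ENO1, the ubiquitous enolase, had 25804 and 27129 in resistant and 28799.9 and 31268 in parental libraries (-0.18 ± 0.07, adjusted p = 0.0785), and PKM, pyruvate kinase, 53316 and 56680.3 against 63092 and 60112 (-0.16 ± 0.07, adjusted p = 0.0893). Neither overlapped between groups, yet neither passed. ENO1 and PKM passed where low values were not filtered (0.0494 and 0.0479), and over the alternatives ran from 0.00611 to 0.328 and from 0.0112 to 0.468. TPI1, the triose isomerase, had 13757 and 14485 against 15272 and 16354 (-0.16 ± 0.07, adjusted p = 0.107). PGAM1, the mutase, had 9722 and 10317 against 10807 and 11486 (-0.15 ± 0.07, adjusted p = 0.129). The neuronal enolase ENO2 had 2493 and 2949.5 in resistant and 2630 and 2774 in parental libraries (0.01 ± 0.10, adjusted p = 0.972).

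At the lactate end the main enzyme and the exporter were lower. LDHA, whose subunit favours making lactate, had 33994 and 38346 in resistant libraries and 45299 and 45780.1 in parental ones, a 1.26-fold fall (-0.33 ± 0.08, limma adjusted p = 0.00932). It was lost without resistant replicate 1 (0.0701, in a range of 8.85e-08 to 0.0701). LDHB, whose subunit favours the reverse reaction, had 12942 and 13105 in resistant and 13631 and 13252 in parental libraries (-0.05 ± 0.07, adjusted p = 0.634). The ratio of LDHA to LDHB per kilobase was 1.67 and 1.86 in resistant libraries and 2.12 and 2.2 in parental ones. SLC16A3, the lactate exporter MCT4 (chromosome 17, 82228397 to 82261129), had 1923 and 2262 in resistant and 3152 and 3736 in parental libraries. Its groups were well separated, with a 1.65-fold fall (-0.72 ± 0.11, adjusted p = 0.00203). SLC16A3 overlaps CSNK1D on the other strand, which stood at 0.21 on the log2 scale (adjusted p = 0.0636).

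**Figure D3:**
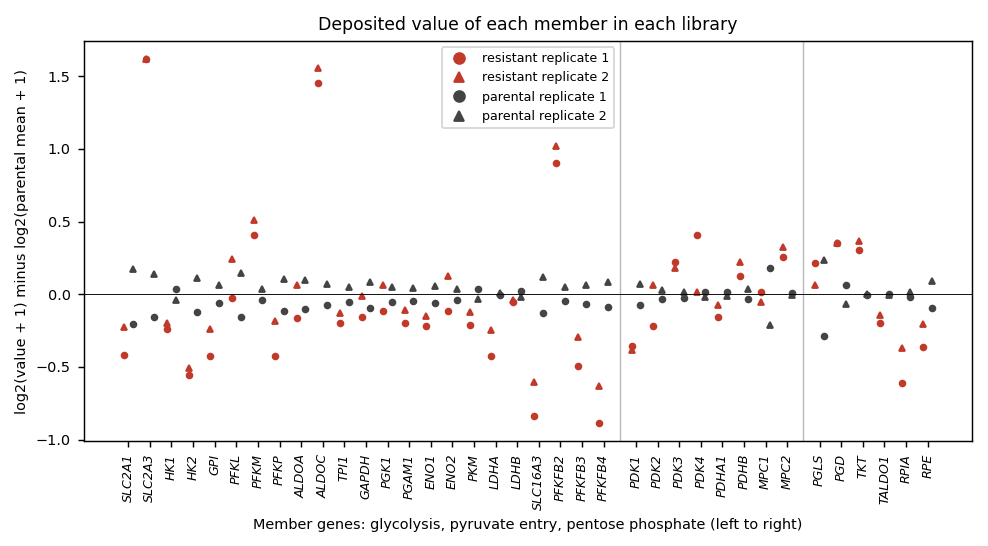
Deposited value of each member in each library as log2(value + 1) minus the log2 of the parental mean plus 1, with branches separated by grey lines. The resistant libraries of SLC2A3, ALDOC and PFKFB2 lie far above the parental ones, those of SLC16A3 and PFKFB4 far below, and in glycolysis replicate 2 (triangles) lies above replicate 1 (circles) in 22 of 23 genes in resistant and 20 of 23 in parental libraries.

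Glycolysis genes also varied together between libraries of the same group. In resistant cells 22 of the 23 were higher in replicate 2 than in replicate 1, with a median log2 difference of 0.15, and in parental cells 20 of 23 were, with a median of 0.12. Over all genes tested the medians were 0.04 and 0.05 (58.4% and 59.2% of genes higher in replicate 2). Pyruvate entry genes showed medians of 0.02 in resistant and 0.01 in parental cells, and pentose phosphate genes 0.06 and 0.02. This shared spread enters the standard errors of glycolysis genes, and its part in the results was not tested.

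In pyruvate entry a kinase was lower and a carrier subunit higher. PDK1, a kinase that inactivates pyruvate dehydrogenase and a known hypoxia target (window printed above), had 1979 and 1945 in resistant libraries and 2401 and 2662 in parental ones, a 1.29-fold fall (-0.37 ± 0.08, limma adjusted p = 0.0102). The call was lost without resistant replicate 1 (0.0514) or resistant replicate 2 (0.0617), in a range of 6.43e-07 to 0.0617. MPC2, a subunit of the mitochondrial pyruvate carrier, had 835 and 876 in resistant and 703 and 695 in parental libraries, a 1.22-fold rise (0.29 ± 0.09, adjusted p = 0.0403). This narrow call was lost without any 1 of the libraries (0.147 without resistant replicate 1, 0.247 without resistant replicate 2, 0.0739 and 0.0864 without parental replicates 1 and 2) and where low values were not filtered (0.0644), in a range of 0.00265 to 0.247. MPC2 overlaps DCAF6 on the other strand (log2 fold change -0.05). The partner subunit MPC1 had 205 and 196 in resistant and 230.2 and 175 in parental libraries, which overlap (95% interval of the log2 fold change -0.40 to 0.39).

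The other 3 kinase genes did not pass. PDK2 had 792 and 959 in resistant and 901 and 939 in parental libraries (-0.08 ± 0.11, limma adjusted p = 0.638). PDK3 had 204 and 198 against 172 and 177, without overlap (0.20 ± 0.15, adjusted p = 0.322). PDK4, the starvation-induced form, was barely expressed, with 50.5 and 38.2 in resistant and 38.2 and 37.3 in parental libraries (0.21 ± 0.27, adjusted p = 0.59). Of the pyruvate dehydrogenase E1 genes, PDHA1 had 3178 and 3369.9 in resistant and 3578 and 3506 in parental libraries (-0.11 ± 0.08, adjusted p = 0.272), and PDHB 2456 and 2617 against 2195 and 2303 (0.17 ± 0.08, adjusted p = 0.124). PDHB passed with scaling by library total (0.0142) and with TMM (0.0452), in a range of 0.0142 to 0.477. Per kilobase PDK1 made up 28.5% and 25.9% of kinase signal in resistant libraries and 31.8% and 33.3% in parental ones, a level set low by its long annotated transcript of 14193 bases.

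In the pentose phosphate pathway an oxidative enzyme and transketolase were higher while the ribose-5-phosphate isomerase was lower. PGD, which yields NADPH, had 2336 and 2333 in resistant libraries and 1913 and 1748 in parental ones, a 1.28-fold rise (0.35 ± 0.08, limma adjusted p = 0.0111). It was lost without resistant replicate 1 (0.0695) or resistant replicate 2 (0.0647), in a range of 2.15e-06 to 0.0695. PGLS, the lactonase before it, had 465 and 419.5 in resistant and 329 and 473 in parental libraries, which spread widely (0.16 ± 0.18, adjusted p = 0.519). TKT, the transketolase that links pentoses back to glycolysis (chromosome 3, 53224707 to 53256052), had 15969 and 16718 in resistant and 12931 and 12973 in parental libraries. The groups lay apart, with a 1.26-fold rise (0.34 ± 0.07, adjusted p = 0.00524). RPIA, which makes ribose-5-phosphate and whose window is printed above, had 337 and 399 in resistant and 509 and 520.1 in parental libraries, a 1.40-fold fall (-0.49 ± 0.12, adjusted p = 0.0163). Without resistant replicate 1 it was lost (0.15, in a range of 2.02e-05 to 0.15). TALDO1, transaldolase, had 2023 and 2104 in resistant and 2332 and 2318 in parental libraries (-0.17 ± 0.08, adjusted p = 0.113). RPE, the epimerase, had 1465 and 1633 against 1764 and 2000.1 (-0.28 ± 0.10, adjusted p = 0.0531), and passed without parental replicate 1 (0.0297, in a range of 3.16e-04 to 0.311). RPE overlaps KANSL1L on the other strand, which was higher (0.65, adjusted p = 0.0154).

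Set side by side, glycolysis had 11 of 23 members called (4 higher, 7 lower) with a median log2 fold change of -0.16, pyruvate entry 2 of 8 (1 higher, 1 lower) with a median of 0.09, and the pentose phosphate branch 3 of 6 (2 higher, 1 lower) with a median of -0.01. Over all genes tested 37.1% were called and the median was -0.02. Calls in each branch varied with the library left out. Leaving out 1 library gave medians of -0.20 to -0.11 in glycolysis, 0.04 to 0.16 in pyruvate entry and -0.13 to 0.06 in the pentose phosphate branch. With scaling by library total the medians were -0.07, 0.18 and 0.09. These are descriptions of small lists, and the differences between branches were not tested. Glycolysis genes held 1.33% and 1.40% of the total signal in resistant libraries and 1.38% and 1.41% in parental ones. Pyruvate entry genes held 0.0419% and 0.0421% in resistant libraries, against 0.0412% and 0.0406% in parental ones. Pentose phosphate genes held 0.0975% and 0.0974% in resistant libraries and 0.0798% and 0.0775% in parental ones, and TKT made up most of that sum.

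By level per kilobase of transcript, the order of the members was largely shared by the groups. GAPDH was the highest at a mean of 34613 in resistant and 36687 in parental cells, followed by PKM (20242 and 22673), LDHA (14971 and 18849) and ALDOA (13982 and 14443). PDK4 was the lowest at 12.4 and 10.6. SLC2A3 moved most in rank, standing 13th in resistant and 24th in parental cells, ahead of ALDOC at 17th and 26th. Within each library LDHA stood above ALDOA, at 14070.5 and 15872 against 12884 and 15080.2 in resistant libraries. In parental libraries they were at 18749.6 and 18949 against 13455 and 15430.3. TPI1 and ENO1 were close (means of 11471 and 11286 in resistant and 12846 and 12808 in parental cells). TPI1 was above ENO1 in both resistant libraries but below it in parental replicate 2 (13285 against 13334), so the order of TPI1 and ENO1 is not settled.

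The tested coding genes within 2 Mb of each member were read for changes shared along a chromosome. PGAM1 (chromosome 10, 97426160 to 97433441) had 33 such neighbours, of which 21 were called higher and 0 lower. Over all genes tested 16.2% were called higher and 20.9% lower. The PGAM1 neighbours had a median log2 fold change of 0.55, while PGAM1 itself was at -0.15. The other members on chromosome 10, HK1, PFKP and PFKFB3, had neighbour medians of -0.18, -0.10 and -0.12 and were themselves at -0.22, -0.30 and -0.39. Of the 36 HK1 neighbours 14 were called lower and 3 higher. The lowest neighbour medians were -0.36 around PDHA1 and -0.24 around PDHB, with these members at -0.11 and 0.17. Around SLC2A3 the 58 neighbours had a median of 0.03, around ALDOC the 50 neighbours -0.07 and around PFKFB2 the 29 neighbours 0.12. Near SLC16A3 the median of 58 genes was -0.18 and near PFKFB4 that of 80 genes -0.06.

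**Figure D4:**
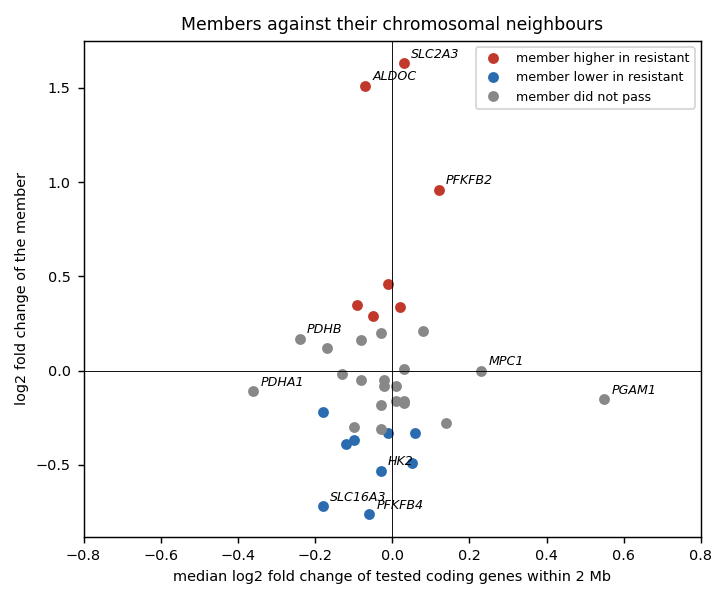
Log2 fold change of each member (vertical axis) against the median log2 fold change of the tested coding genes within 2 Mb (horizontal axis), resistant minus parental. SLC2A3, ALDOC and PFKFB2 lie high over neighbour medians of 0.03, -0.07 and 0.12, and PGAM1 at -0.15 lies far to the right over a neighbour median of 0.55.

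Further genes of the pathway, chosen by role, were read from the same fit. Of 28 further genes listed with glycolysis 18 were tested, and 4 rose and 7 fell, or 61.1% against 37.1% of all genes. Without resistant replicate 1 the calls numbered 6, where 21.9% of all genes were called. LDHD, a mitochondrial D-lactate dehydrogenase, had 70 and 90.9 in resistant libraries, against 13 and 18.2 in parental ones (log2 fold change 2.30 ± 0.30, limma adjusted p = 8.31e-04). PCK2, which makes phosphoenolpyruvate in mitochondria, was 1.71-fold higher, and the SLC2A family genes SLC2A12 and SLC2A13 1.75-fold and 1.56-fold higher. GPD2, which passes cytosolic electrons to the respiratory chain, had 2226 and 2203 in resistant and 3640.4 and 3804 in parental libraries, a 1.68-fold fall (adjusted p = 2.65e-04). HKDC1, a further hexokinase, was 1.72-fold lower, the monocarboxylate transporter SLC16A7 1.46-fold and SLC2A8 1.45-fold. SLC2A13 and SLC2A8 were called in 11 of the 14 alternatives, SLC16A7 and HKDC1 in 13, and LDHD, PCK2, SLC2A12 and GPD2 in all 14. Without resistant replicate 1 the adjusted p was 0.0551 for SLC16A7, 0.0516 for HKDC1, 0.159 for SLC2A8 and 0.172 for SLC2A13. SLC2A13 was also lost without resistant replicate 2 (0.0759) and parental replicate 1 (0.114), and SLC2A8 without resistant replicate 2 (0.096) and parental replicate 2 (0.124).

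Of 10 further genes of pyruvate entry 9 were tested, with 2 higher and 1 lower, or 33.3% against 37.1% of all genes. The count is thus near that of the transcriptome. PC, pyruvate carboxylase, had 1809.5 and 2126 in resistant libraries and 1091 and 1352 in parental ones, a 1.61-fold rise (limma adjusted p = 0.00411). PDP1, the phosphatase that reactivates pyruvate dehydrogenase, had 10774 and 11617 against 7024 and 7993, a 1.49-fold rise (adjusted p = 0.00135). DLAT, the acetyltransferase core of the complex, was 1.31-fold lower (adjusted p = 0.00652), a call lost without resistant replicate 1 (0.0611). PDK1 and PDP1, which act on the same enzyme in opposite ways, thus moved in opposite directions as transcripts. The other kinase genes were not called. Among these, PDK2 held a mean of 49.8% of kinase signal per kilobase in resistant and 48.9% in parental libraries. That share depends on annotated length, at 14193 bases for PDK1 and 3440 for PDK2. Without division by length PDK1 was the higher of the pair. Its means were 1962 in resistant and 2532 in parental libraries, against 876 and 919.7 for PDK2. The other phosphatase gene listed and the phosphatase regulator gene were not called either. Enzyme activity was not measured.

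Of 7 further pentose phosphate genes 6 were tested, with 2 higher and 3 lower, or 83.3% against 37.1% of all genes. Without resistant replicate 2 the calls numbered 3, where 23.5% of all genes were called. H6PD, which starts the oxidative route in the endoplasmic reticulum, had 1365 and 1302 in resistant libraries, against 752 and 818 in parental ones, a 1.70-fold rise (limma adjusted p = 5.76e-04). RBKS, ribokinase, was 1.85-fold higher at low values of 62.5 and 43.3 against 27.7 and 27.7 (adjusted p = 0.0426). The RBKS call was lost without any 1 of the libraries, with adjusted p of 0.317 and 0.0629 without resistant replicates 1 and 2 and 0.0802 and 0.0795 without parental replicates 1 and 2. SHPK, which phosphorylates sedoheptulose, was 1.56-fold lower, and the ribose phosphate pyrophosphokinases PRPS1 and PRPS2 were 1.33-fold and 1.30-fold lower. The PRPS2 call was lost without resistant replicate 2 (0.0617).

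Among 15 regulators of these genes 14 were tested, with 4 higher and 1 lower, or 35.7% against 37.1% of all genes, a count near that of the transcriptome. TXNIP, a glucose-induced protein that holds back glucose uptake, had 14137 and 12922 in resistant libraries and 2506 and 2622 in parental ones, a 5.27-fold rise (log2 fold change 2.40 ± 0.08, limma adjusted p = 3.94e-06). HIF1A, the oxygen-regulated factor, had 22244 and 20996 against 15921 and 16723, a 1.32-fold rise (adjusted p = 0.00268), while EGLN1, the prolyl hydroxylase that marks it for destruction, was 1.54-fold lower (adjusted p = 0.0018). MYC was 1.28-fold higher (adjusted p = 0.0078, and 0.0557 without resistant replicate 2) and FOXO1 1.59-fold higher (adjusted p = 0.00187).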

How the data were processed

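Gene-level values of 4 libraries, 2 per group, were read from 1 deposited table of 58219 IDs, of which 57881 had a GENCODE 29 symbol. The authors deposited a signal for each gene: fragments scaled library by library, with no division by length. The submitters' processing notes name build GRCh38.p10, Cuffdiff, Cufflinks 2.2.1, HISAT2 2.1.0, Trimmomatic 0.36, SAMtools 1.2 and bcl2fastq, with no role or order. Annotation release, scaling method and counting strand: not given in the sources used here. Totals were 23163310 to 25832511, or about 27019137 to 30759939 fragments. The step taken for a fragment was the commonest of the small nonzero values in each library. Of nonzero values, 93.8% to 94.3% were whole multiples of that step within 0.05. As values were scaled and not whole, a test on log values was used and not a count test.

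Genes with a value of at least 10 in at least 2 libraries and a sum of at least 15 were tested with limma 3.58.1 under R 4.3.3 on the log2(value + 1) scale, using trended and robust moderation, group alone, two-sided, and Benjamini-Hochberg adjustment at 0.05. Fold changes on this scale understate those of low genes. The procedure was tested on simulated data, with a fixed spread setting for every gene and changes larger than those of most called members. That run did not cover small changes. Levels per kilobase used the longest principal transcript of GENCODE 29. All members were named, with up to 4 higher and 4 lower called genes of each further list by size of change, besides overlapping genes and copies. Members and lists were chosen with earlier results of these data known. The 14 alternatives covered scaling, pseudocount, filter, weights, moderation, a replicate block and leaving out each library.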

Additional observations from a re-analysis of the deposited data

How the results depend on the processing

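Over 14 alternatives, 518 member values were recomputed. Of these 456 kept their direction and their side of the threshold, 22 lost the threshold, 18 gained it and 22 changed sign. The sign changes fell in 9 members, 0 of them called. Under scaling by library total the log2 fold change was 0.05 for ALDOA and LDHB, 0.01 for GAPDH, 0.07 for PGK1, 0.02 for PDK2 and 0.09 for MPC1. TMM gave 0.02 for PGK1 and 0.04 for MPC1, and median of ratios 0.01 for MPC1. Leaving out 1 library gave -0.04 to 0.27 for PFKL, -0.16 to 0.07 for ALDOA, -0.17 to 0.01 for GAPDH, -0.11 to 0.07 for PGK1 and -0.12 to 0.13 for ENO2. It gave -0.21 to 0.06 for PDK2, -0.20 to 0.20 for MPC1 and -0.10 to 0.42 for PGLS. Of the 16 called members 8 passed in all 14 alternatives, and of the 21 others 9 passed in some. Leaving out 1 library at a time gave 8 to 17 members called (5 to 6 higher, 3 to 11 lower) and 3528 to 5435 genes over the whole table (1356 to 2733 higher, 2016 to 3137 lower). Glycolysis then had 7 to 12 called and a median log2 fold change of -0.20 to -0.11. Pyruvate entry had 0 to 1 called and a median of 0.04 to 0.16, and the pentose phosphate branch 1 to 4 and -0.13 to 0.06. The further lists had 6 to 10 called (glycolysis), 2 to 3 (pyruvate entry), 3 to 4 (pentose phosphate) and 4 to 7 (regulators). Scaling by library total moved the medians to -0.07 in glycolysis, 0.18 in pyruvate entry and 0.09 in the pentose phosphate branch, which TMM moved to 0.04, and gave 8 regulators called. Without a filter on low values 1 pyruvate entry gene was called. The causes were not tested.

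With the replicate number as a block, 25 members were called (17 lower), with 17 in glycolysis, 5 in the pentose phosphate branch and 8 regulators. The whole table then gave 3903 higher and 4721 lower genes. Deviations of same-numbered libraries correlated at 0.265 across genes. With 2 pairs and no label tying the numbers to a shared culture, whether same-numbered libraries share a culture or batch cannot be told.

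With 2 libraries a group, small differences in abundant genes rest on few degrees of freedom, and PDK4 and other low genes on few fragments.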

Other observations

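SLC16A1, the monocarboxylate transporter MCT1, was singled out after its values were seen. It was listed at 0.753 and 0 in resistant libraries and at 0 and 0.956 in parental ones, at most 1 fragment in any library, and this listing is not read as absence of expression. Its chaperone gene BSG had 6939 and 7849 in resistant libraries and 7068 and 7608 in parental ones, which overlap. TPI1 copies summed to 5.79% and 5.09% of the TPI1 value in resistant libraries and 7.98% and 4.79% in parental ones. The 62 GAPDH copies summed to 0.815% and 0.479% in resistant and 0.945% and 0.529% in parental libraries.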
